A study of Homo sapiens with 6 samples.

Results

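Homeobox genes and their close relatives were selected by name, as genes whose symbol has the prefix HOXA- to HOXD-, SIX-, PAX-, LHX-, TLX-, IRX-, DLX-, PITX-, MEIS-, PBX-, MSX-, EMX-, OTX- or NKX- before a number. The rule found 66 genes of the 10661 with a row in at least 1 of the RNA tables, 38 of 8798 in the table of ME-180 cells and 61 of 9490 in the table of SiHa cells, with 33 in both. Of these, 19 were HOX genes, of the 39 human HOX genes in RefSeq. TLX1NB matched by its prefix only and is a neighbour of TLX1 that encodes no homeodomain, and PAX1 and PAX9 carry a paired domain without a homeodomain.

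The study measured RNA after loss or gain of p63, a transcription factor of stratified epithelia encoded by TP63, in cervical cancer cell lines. It has 4 RNA libraries with 1 library per group. They are ME-180 cells labelled knockdown with an shRNA column name against p63, ME-180 cells labelled control with the column name of the empty pLKO vector, SiHa cells labelled overexpression of p63, and SiHa cells labelled vector. ME-180 and SiHa are established human lines from cervical carcinomas, the study also has a p63 chromatin immunoprecipitation and its input from ME-180 cells, and the labels give no clone, hairpin or p63 isoform.

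HOX genes encode transcription factors that lie in 4 clusters, HOXA to HOXD, and are switched on along the head-to-tail axis of the embryo in the order of their paralog numbers, low numbers in front and high numbers behind. Adult cells keep much of this pattern, so that the HOX genes a cell expresses act as a record of the body region it came from. HOX proteins bind DNA together with PBX and MEIS proteins, which are homeodomain factors of the TALE class, while PAX, LHX, IRX, NKX, DLX, MSX, PITX, OTX, EMX and SIX-class proteins lay out organs and tissues within a region. The genital tract is patterned by posterior HOX genes, with HOXA13 at its lower end.

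Levels are given as counts scaled to a column total of 1000000 (CPM) with the counts beside them, for the transcript of each gene with the most reads. CPM is not corrected for transcript length, so it is compared between libraries and not between genes. With 1 library per group no test of the conditions was possible. Calls of higher or lower were made where CPM + 1 differed by 2-fold or more and where the gene reached 1 CPM in either library. Intervals are exact 95% intervals for counting error only. For a fold against 0 counts, the 0 was replaced by 3 counts in that library, and the fold is then written as "at least". The strand setting of the counting is not given in the sources used here, so reads of a gene and of an antisense transcript over it, which HOX clusters hold, cannot be told apart.

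Missing rows had to be read first, because they decide how much of the HOX pattern can be seen. Among SiHa transcripts with at least 100 counts, the ME-180 table had a row for 99.8% of the 6655 with a long RefSeq identifier and for 99.8% of the 513 with a short identifier numbered up to 1200. It had a row for 6.20% of the 1354 with a short identifier numbered above 1200. All 28 members with a SiHa row and no ME-180 row belonged to that last, sparsely covered class, among them 13 HOX genes. Their absence from the ME-180 table therefore says nothing about their expression in ME-180 cells. Of the 38 members that have an ME-180 row, 25 were measured by a transcript of the well-covered classes, and the counts of calls are given with and without the others. In the SiHa table the sparse class was short identifiers numbered above 3000, of which 9.75% of rows reached 100 counts, against 61.6% of rows with long identifiers. There 35 of 61 members were well covered, and of the 17 HOX genes 8 were.

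TP63 went with the labels. It had 6 counts (0.597 CPM) in the ME-180 library labelled knockdown and 5619 counts (520 CPM) in the ME-180 control, and 179 counts (13.1 CPM) in SiHa overexpression against 7 counts (0.493 CPM) in SiHa vector. The column totals of the 4 libraries were between 10046579 and 14207637 counts. The library labelled knockdown stood apart from its control far beyond p63, since 48.9% of 6783 genes at 1 CPM or more passed 2-fold, against 1.32% of 6996 genes in the SiHa pair. The basal squamous marker list had 6 genes with a row, the keratins KRT5, KRT14 and KRT17, the basement membrane anchor COL17A1, the desmosomal plaque protein PKP1 and TP63 itself. Their summed level was 37.7 CPM in ME-180 knockdown and 75051 CPM in ME-180 control, and the 5 other than TP63 were all lower. Their part in the results on homeobox genes was not tested.

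Promoters of 6 members whose levels carry the comparisons follow, as 300 bases from 250 before to 50 after the RefSeq start site of GRCh38.p14, 5′ to 3′ on the gene's strand, with CpG dinucleotides in capitals. HOXD13 and HOXA13 are shown because they were read in all 4 libraries and moved in opposite directions between the ME-180 libraries. PAX7, IRX2 and NKX2-4 are shown because 1 ME-180 library held them at 0 counts, and TLX1 because it had the lowest log2 ratio of any member in the SiHa pair.
HOXD13 promoter, chr2:176092471-176092770, plus strand: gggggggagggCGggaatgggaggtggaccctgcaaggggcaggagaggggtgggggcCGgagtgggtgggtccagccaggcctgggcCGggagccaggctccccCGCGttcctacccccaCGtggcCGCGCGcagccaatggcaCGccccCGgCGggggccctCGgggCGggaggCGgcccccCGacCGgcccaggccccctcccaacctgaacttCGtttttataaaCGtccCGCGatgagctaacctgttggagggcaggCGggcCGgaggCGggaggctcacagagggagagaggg
HOXA13 promoter, chr7:27200042-27200341, minus strand: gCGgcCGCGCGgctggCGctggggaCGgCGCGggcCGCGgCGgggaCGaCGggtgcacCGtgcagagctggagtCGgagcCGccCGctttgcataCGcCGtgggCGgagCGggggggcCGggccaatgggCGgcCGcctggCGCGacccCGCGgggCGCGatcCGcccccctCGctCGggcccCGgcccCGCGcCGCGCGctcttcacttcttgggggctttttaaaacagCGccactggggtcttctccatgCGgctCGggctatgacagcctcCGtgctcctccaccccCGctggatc
PAX7 promoter, chr1:18630596-18630895, plus strand: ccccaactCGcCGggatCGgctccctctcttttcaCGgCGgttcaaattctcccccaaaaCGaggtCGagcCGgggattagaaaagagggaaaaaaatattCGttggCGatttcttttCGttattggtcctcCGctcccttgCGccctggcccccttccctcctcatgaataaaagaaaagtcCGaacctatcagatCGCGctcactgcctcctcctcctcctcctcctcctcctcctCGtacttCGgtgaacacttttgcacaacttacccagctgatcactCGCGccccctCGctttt
IRX2 promoter, chr5:2751628-2751927, minus strand: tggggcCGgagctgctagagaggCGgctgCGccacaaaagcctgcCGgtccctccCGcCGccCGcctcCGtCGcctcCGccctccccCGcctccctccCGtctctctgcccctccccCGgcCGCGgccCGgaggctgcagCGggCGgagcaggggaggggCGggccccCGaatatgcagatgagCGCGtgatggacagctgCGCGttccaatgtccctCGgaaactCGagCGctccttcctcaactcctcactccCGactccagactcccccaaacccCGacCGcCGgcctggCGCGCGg
NKX2-4 promoter, chr20:21397477-21397776, minus strand: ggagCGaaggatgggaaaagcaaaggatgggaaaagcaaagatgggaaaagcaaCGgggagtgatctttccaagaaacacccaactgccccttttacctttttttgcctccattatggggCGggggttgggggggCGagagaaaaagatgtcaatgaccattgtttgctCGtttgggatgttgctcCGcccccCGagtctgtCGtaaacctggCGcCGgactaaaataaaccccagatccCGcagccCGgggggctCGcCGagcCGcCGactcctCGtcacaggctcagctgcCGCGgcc
TLX1 promoter, chr10:101131050-101131349, plus strand: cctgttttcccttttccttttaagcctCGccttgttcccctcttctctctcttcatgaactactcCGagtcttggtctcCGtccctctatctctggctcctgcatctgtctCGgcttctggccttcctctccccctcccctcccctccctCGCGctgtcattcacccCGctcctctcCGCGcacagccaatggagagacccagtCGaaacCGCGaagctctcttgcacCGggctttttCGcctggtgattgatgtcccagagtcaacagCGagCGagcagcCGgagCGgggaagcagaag
RefSeq held such windows for 46 of the 66 members, 75 windows in all. The median member window had 21 CpG and 62.3% GC, against 14 CpG and 58.7% GC over all 35116 windows. CpG numbered 24 in the HOXD13 window, 44 in HOXA13, 21 in PAX7, 34 in IRX2, 19 in NKX2-4 and 18 in TLX1. The p53-family half-site consensus, which p63 shares, matched on either strand in 8% of member windows and in 6.63% of all windows, and in none of the 6 shown. The homeodomain core TAAT, also on either strand, was present in 57.3% of member windows and in 50.2% of all windows, once each in those of PAX7 and NKX2-4. A match is a run of letters and was not tested as a binding site.

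The HOX rows of the ME-180 table were few. They were HOXA13, HOXB1, HOXC12, HOXD8, HOXD12 and HOXD13, of which 3 of 6 were at 1 CPM or more in the library labelled knockdown and 4 of 6 in the control. HOXD13, a gene of limb and genital tubercle development, had 2237 counts (223 CPM) in ME-180 knockdown and 85 counts (7.87 CPM) in ME-180 control, so it was 28.3-fold higher (22.8 to 35.6) in knockdown. HOXA13, its paralog in the A cluster, had 488 counts (48.6 CPM) in knockdown and 1061 counts (98.2 CPM) in control, 2.02-fold lower (1.81 to 2.26) in knockdown. This ratio lies just inside the limit of 2-fold, with IRX5 at a log2 ratio of 0.99 just outside it. HOXC12, a posterior gene of the C cluster, had 0 counts in knockdown and 127 counts (11.8 CPM) in control, at least 39.4-fold lower in knockdown with a lower 95% limit of 31.6-fold. Its row is of the sparsely covered class.

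HOXD8 was at almost the same level in both ME-180 libraries, at 91 counts (9.06 CPM) in knockdown and 97 counts (8.98 CPM) in control, a ratio of 1.01-fold (0.749 to 1.36). The remaining pair were near 0. HOXB1, a hindbrain gene, had 0 counts in knockdown and 2 in control, and HOXD12 had 5 counts in knockdown and 0 in control. Between the ME-180 libraries, then, the 13th paralogs of clusters A and D moved apart, HOXC12 was read only in the control, and HOXD8 differed by less than counting error.

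SiHa cells gave a wider view, with 17 HOX rows, of which 15 of 17 reached 1 CPM in SiHa overexpression and 16 of 17 in SiHa vector. Genes of all 4 clusters and of anterior, middle and posterior rank were read. In the A cluster HOXA3 had 82 counts in overexpression and 126 in vector, and HOXA4 had 182 in overexpression and 211 in vector. HOXA13 had 121 counts (8.84 CPM) in overexpression and 95 counts (6.69 CPM) in vector, a ratio of 1.32-fold with an interval from just above 1 to 1.75. In the B cluster, whose genes pattern hindbrain and trunk, HOXB2 had 433 counts in overexpression and 483 in vector.

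HOXB3 had 245 counts in SiHa overexpression and 380 in SiHa vector, and HOXB5 had 147 in overexpression and 216 in vector. HOXB8, studied in blood cell precursors, had 172 counts (12.6 CPM) in overexpression and 292 counts (20.6 CPM) in vector, 1.64-fold lower (1.35 to 1.99) in overexpression. In the C cluster HOXC4 had 94 counts in overexpression and 129 in vector. HOXC8, a trunk gene, had 283 counts in overexpression and 294 in vector, which is 20.7 CPM in both. HOXC11 had 240 counts in overexpression and 262 in vector, and HOXC12 had 47 in overexpression and 45 in vector.

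The D cluster was read in part, with 6 genes that had a SiHa row, HOXD1, HOXD3, HOXD4, HOXD8, HOXD10 and HOXD13. HOXD10 had 701 counts (51.2 CPM) in SiHa overexpression and 995 counts (70.0 CPM) in SiHa vector, 1.37-fold lower (1.24 to 1.51). HOXD13 had 936 counts (68.4 CPM) in overexpression and 1256 counts (88.4 CPM) in vector, 1.29-fold lower (1.19 to 1.41). HOXD1, HOXD3, HOXD4 and HOXD8 stayed between 7 and 49 counts in both SiHa libraries.

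**Figure D1:**
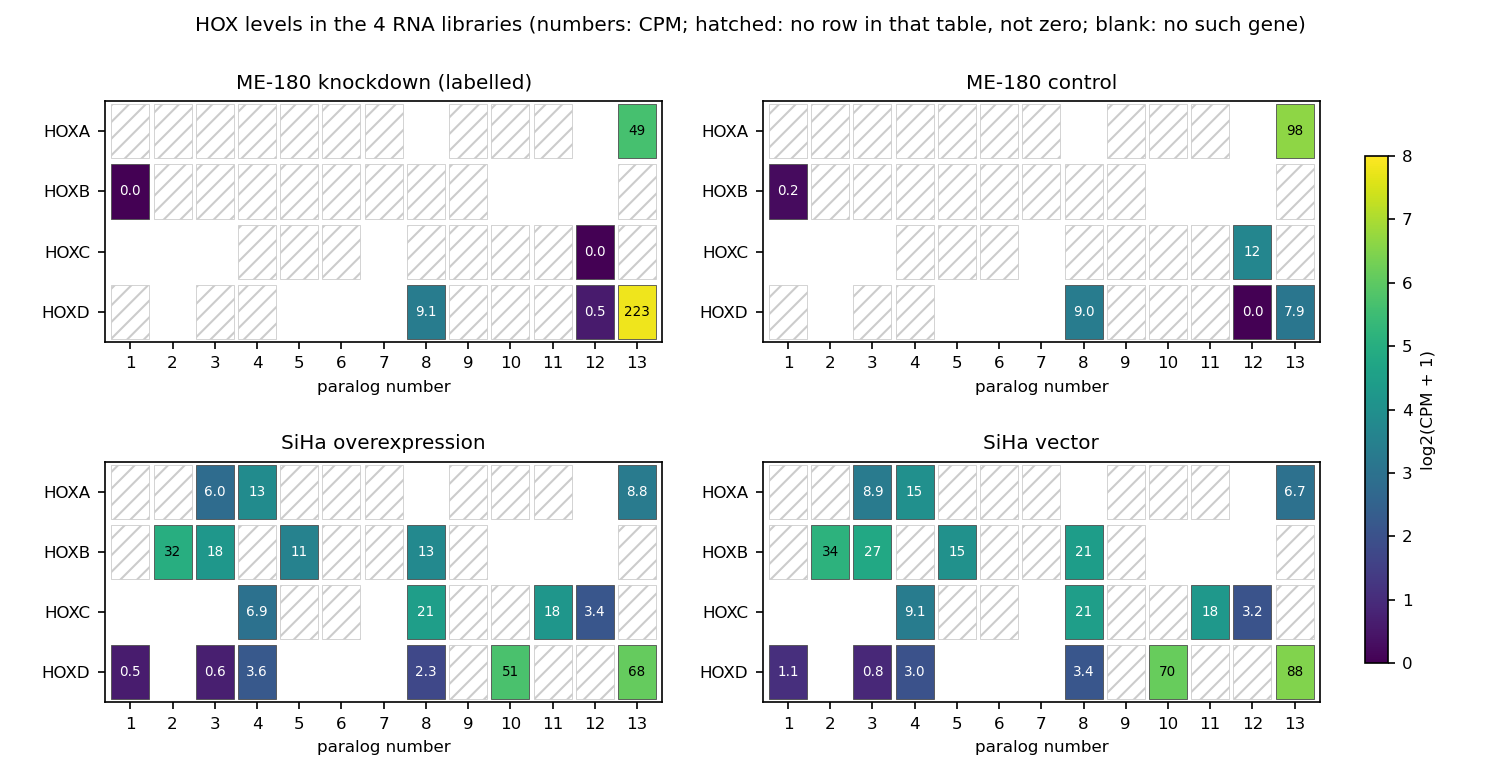
Levels of the HOX genes by cluster (vertical) and paralog number (horizontal) in the 4 RNA libraries, with colour as log2(CPM + 1) and the CPM printed in each square. Hatched squares have no row in that table and are not zeros. HOXD13 stands at 223 CPM in ME-180 knockdown and 7.87 CPM in ME-180 control, while the SiHa libraries have the same squares filled at similar levels.

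None of the 16 SiHa HOX genes at 1 CPM or more passed 2-fold between overexpression and vector, where 1.32% of all genes did. Most of their ratios lay a little below 1. In 13 of 16 the log2 ratio was below 0, against 57.4% of all genes, and 12 of 16 lay below the median of all genes. The interval lay wholly below 1 for 7 of the 16 and wholly above 1 for 1, HOXA13, against 23.8% and 14.7% of all genes. The median log2 ratio of the 16 was -0.36, and that of all genes was -0.05. HOX genes of 1 library share its preparation, so these counts describe a pair of libraries and not the effect of p63.

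Over the 4 HOX genes with a row in both tables, the SiHa libraries were the closest pair, while ME-180 knockdown differed less from SiHa vector than from ME-180 control. Levels between the tables rest on column totals over different rows, and the median of all genes in common was shifted by 0.28 log2 units between ME-180 control and SiHa vector and by 0.67 between ME-180 knockdown and SiHa vector. HOXD13 was at 223 CPM in ME-180 knockdown, 7.87 CPM in ME-180 control, 68.4 CPM in SiHa overexpression and 88.4 CPM in SiHa vector. It was thus 11.2-fold lower (9.02 to 14.2) in ME-180 control than in SiHa vector, and 2.52-fold higher (2.35 to 2.70) in ME-180 knockdown than in SiHa vector.

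The last of these ratios passed 2-fold only on the table totals, at a log2 ratio of 1.32, and was 0.62 after scaling by trimmed means and 0.80 over the transcripts the tables share. HOXA13 separated the lines in the same direction for both ME-180 libraries. Its log2 ratio to SiHa vector was 2.69 for ME-180 knockdown and 3.69 for ME-180 control, and stayed at 2.02 or more under every scaling tried. HOXD8 was 2.63-fold higher (1.84 to 3.80) in ME-180 knockdown and 2.60-fold higher (1.83 to 3.75) in ME-180 control than in SiHa vector. HOXC12 was at least 10.6-fold lower in ME-180 knockdown, and 3.71-fold higher (2.62 to 5.34) in ME-180 control, than in SiHa vector. With trimmed-mean scaling, 2 of these 4 genes still passed 2-fold for ME-180 knockdown, HOXA13 and HOXC12, where 33.3% of 6126 genes did. For ME-180 control 3 of 4 passed, all but HOXD8, where 38.3% of 6192 genes did.

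As a summary of likeness, the mean absolute log2 difference over these 4 genes was 2.34 between the ME-180 libraries, 0.31 between the SiHa libraries, 1.81 between ME-180 knockdown and SiHa vector, and 2.45 between ME-180 control and SiHa vector. Over the 33 members with a row in both tables the same measure was 1.99 for the ME-180 pair, 0.35 for the SiHa pair, 1.51 for ME-180 knockdown and SiHa vector, and 1.52 for ME-180 control and SiHa vector. Over 7587 genes it was 1.15 for the ME-180 pair, 0.23 for the SiHa pair, 0.95 for ME-180 knockdown and SiHa vector, and 0.94 for ME-180 control and SiHa vector. The members therefore differed more than genes at large in each of these pairs, and the SiHa libraries were the closest pair by each measure. The ME-180 libraries were the widest pair over the 33 members and over all genes, though not over the 4 HOX genes. Of the 33 members, 12 reached 1 CPM in just 1 of the ME-180 libraries (36.4%, with 16.5% of all genes), and 3 in just 1 of the SiHa libraries (9.09%, with 4.05% of all genes). With 4 HOX genes in common, and 1 library per group, an effect of the knockdown on these genes and a difference between the cells that went into the libraries cannot be told apart.

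**Figure D2:**
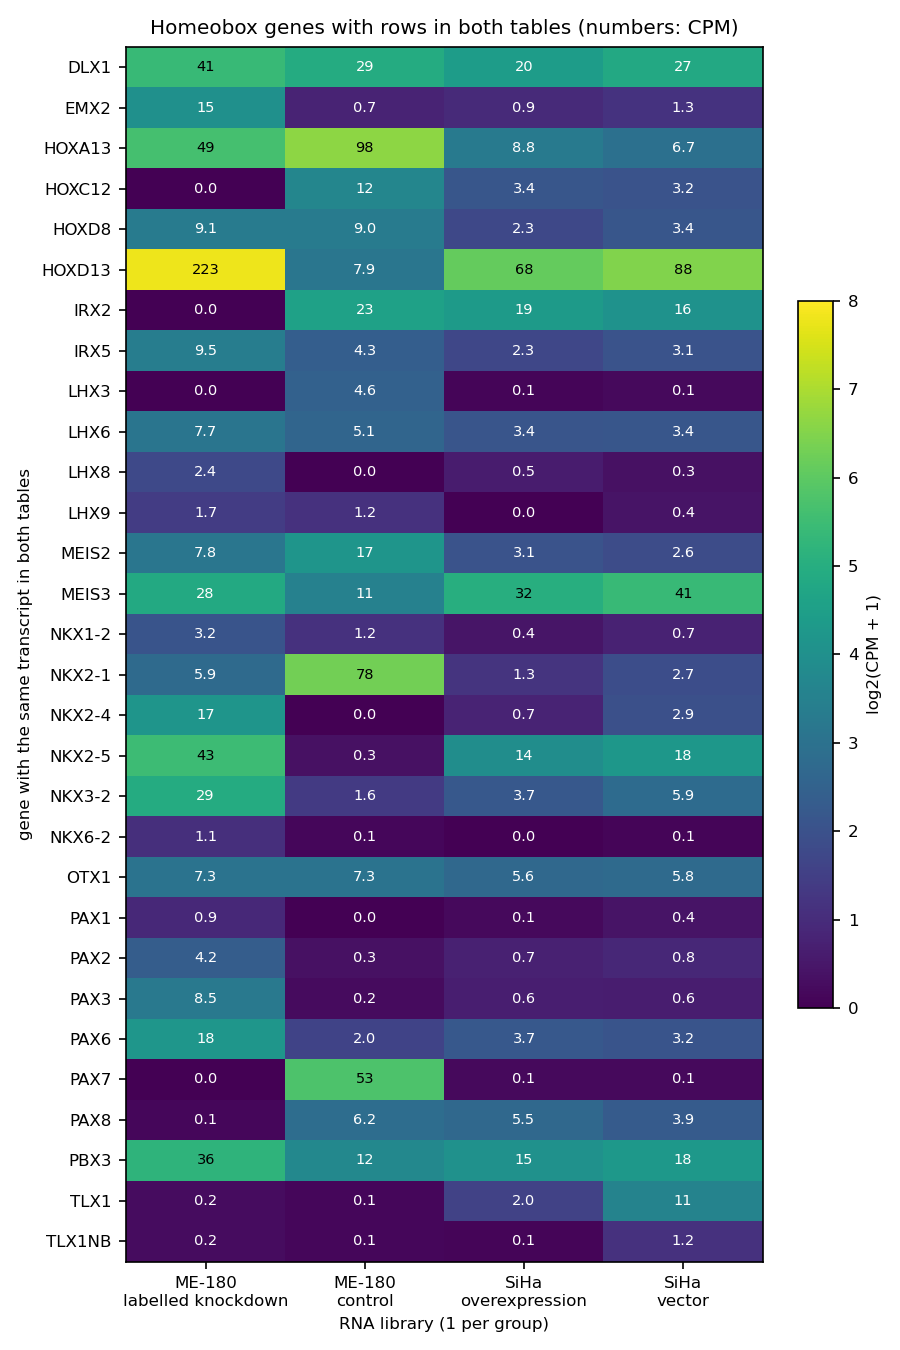
Levels of members with the same transcript in both tables (all but a few not reported here), by library (columns) and gene (rows), with colour as log2(CPM + 1) and CPM printed in each cell. The SiHa columns resemble each other, with a mean absolute log2 difference of 0.35 over all 33 such members, while the ME-180 columns differ by 1.99, as for PAX7 at 0 CPM in ME-180 knockdown and 52.8 CPM in ME-180 control.

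Over all members of the ME-180 table, 32 of 38 reached 1 CPM in at least 1 library. Of these, 11 were higher and 11 lower in the library labelled knockdown and 10 passed in neither direction, which is 68.75% called, where 48.9% of all genes were called, 28.2% higher and 20.6% lower. With the well-covered identifiers alone, 10 were higher and 6 lower of 25 members, 64.0%, where 46.6% of 5998 genes were called. The median log2 ratio of the members was 0.38, and that of all genes 0.28. Scaling by trimmed means brings the median of all genes to 0.00 and gives 11 members higher and 12 lower, with HOXD13 at a log2 ratio of 4.39 and HOXA13 at -1.28. A contrast of 100 or more counts with 3 or fewer was found for 5 of the 17 members that reached 100 counts, 29.4%, where 5.8% of 4983 genes did the same. NKX2-4 and NKX2-5 were the ones read in knockdown, and PAX7, IRX2 and HOXC12 the ones read in control. Within the well-covered identifiers it was 3 of 15 members, 20.0%, where 4.94% of 4842 genes did. The authors' deposited table gives an adjusted p-value under 0.05 for 44 of 67 member transcripts, from 25 of the 38 members. It does so for 5531 of 15189 transcripts in all, from the same pair of unreplicated libraries.

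**Figure D3:**
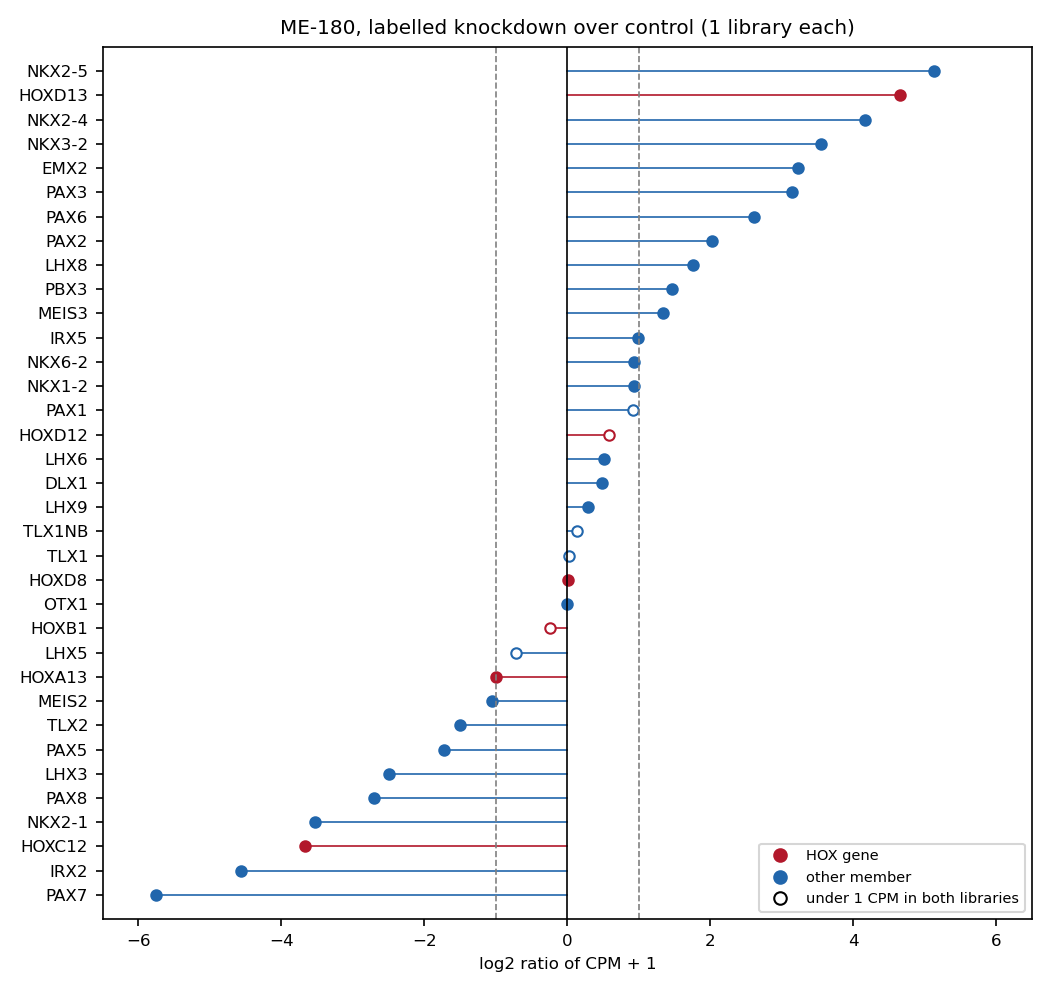
Log2 ratio of CPM + 1 in ME-180 knockdown over ME-180 control for members with a row (all but a few not reported here), 1 point per gene in order of the ratio, with HOX genes marked apart from the others. Ratios spread to both sides of the dashed 2-fold limits, with NKX2-5 at 5.12 and PAX7 at -5.75.

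The HOX cofactors were called in both directions in ME-180 cells. PBX3 had 359 counts (35.7 CPM) in ME-180 knockdown and 133 counts (12.3 CPM) in ME-180 control, 2.90-fold higher (2.37 to 3.57). MEIS2 had 78 counts in knockdown and 186 in control and was called lower at a log2 ratio of -1.06. MEIS3 had 283 counts (28.2 CPM) in knockdown and 114 counts (10.6 CPM) in control, 2.67-fold higher (2.14 to 3.35). PBX3 and MEIS3, then, were called higher in knockdown, while MEIS2 was called lower, where 28.2% of all genes were higher and 20.6% lower.

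In SiHa cells the cofactors were almost level. PBX2 had 1176 in overexpression and 1288 in vector, and PBX3 had 211 in overexpression and 257 in vector. MEIS1, a partner of HOXA proteins in blood, was an exception among the members with 294 counts (21.5 CPM) in overexpression and 158 counts (11.1 CPM) in vector. Its ratio of 1.93-fold (1.59 to 2.36) was short of 2-fold on the scale of CPM + 1, at a log2 ratio of 0.89. On that scale, though not as a plain ratio of CPM, it was the highest of any member in the SiHa pair. MEIS3 had 433 counts in overexpression and 584 in vector, and MEIS2 had 54 counts in overexpression and 56 in vector.

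PAX genes, regulators of muscle, kidney, eye and neural crest, held some of the widest differences between the ME-180 libraries. PAX7, a factor of muscle stem cells and neural crest, had 0 counts in ME-180 knockdown and 571 counts (52.8 CPM) in ME-180 control, at least 177-fold lower in knockdown with a lower limit of 143-fold. Its 3 transcripts all had lower levels in knockdown, with log2 ratios from -5.75 to -1.65. PAX6, a factor of eye, brain and pancreas, had 177 counts (17.6 CPM) in knockdown and 22 counts (2.04 CPM) in control, 8.65-fold higher (5.54 to 14.2), with log2 ratios from 2.49 to 3.22 over its 6 transcripts.

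The other PAX genes had fewer than 100 counts. PAX2, of the kidney, had 42 counts in knockdown and 3 in control, and PAX3, of neural crest and muscle, had 87 in knockdown and 1 in control. PAX8, of thyroid, kidney and the Müllerian tract, had 1 count in knockdown and 67 in control, and PAX5, of B cells, had 0 in knockdown and 25 in control. PAX1, at 9 counts in knockdown and 0 in control, stayed under 1 CPM. The called genes were thus 3 higher (PAX2, PAX3 and PAX6) and 3 lower (PAX5, PAX7 and PAX8), where 28.2% of all genes were higher and 20.6% lower. Of these the rows of PAX3, PAX5 and PAX8 are of the sparsely covered class. A well-covered transcript of PAX3 had 85 counts in knockdown and 2 in control. In SiHa cells no PAX gene was called, where 1.32% of all genes were, and PAX7 had 2 counts in each library.

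NKX genes, which pattern endoderm, heart and ventral neural tube, were the largest family with 9 members, 7 of them in the ME-180 table. NKX2-1, a marker of lung and thyroid epithelium, had 59 counts (5.87 CPM) in ME-180 knockdown and 845 counts (78.2 CPM) in ME-180 control, 13.3-fold lower (10.2 to 17.6). NKX2-5, a heart factor, had 437 counts (43.5 CPM) in knockdown and 3 counts (0.278 CPM) in control, a ratio of 157 with a counting interval from 53.3 to 763. NKX2-4, a close relative of NKX2-1, had 170 counts (16.9 CPM) in knockdown and 0 in control, at least 60.9-fold higher with a lower limit of 49.0-fold, in a row of the sparsely covered class.

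NKX3-2, a factor of cartilage and gut mesenchyme, had 293 counts (29.2 CPM) in knockdown and 17 counts (1.57 CPM) in control, 18.5-fold higher (11.4 to 32.3). NKX1-2, at 32 counts in knockdown and 13 in control, was just short of the limit at a log2 ratio of 0.93, as was NKX6-2, at 11 counts in knockdown and 1 in control, at 0.94. Among these NKX genes, NKX2-4, NKX2-5 and NKX3-2 were called higher in knockdown and NKX2-1 lower. Of all genes in this pair, 28.2% were called higher and 20.6% lower.

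The SiHa libraries carried NKX2-5 in both states, at 183 counts (13.4 CPM) in overexpression and 287 counts (20.2 CPM) in vector. NKX2-1 had 18 counts in overexpression and 38 in vector, and NKX3-2 had 50 in overexpression and 84 in vector. NKX2-2, of the ventral spinal cord and pancreas, had 15 counts in overexpression and 52 in vector and was called lower at a log2 ratio of -1.15. NKX2-4 had 10 counts in overexpression and 41 in vector and was called lower at -1.17, and NKX2-3, at 6 in overexpression and 25 in vector, lay just outside the limit at -0.94. Each NKX gene given here had a lower level in SiHa overexpression than in SiHa vector, most of them on few counts.

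IRX genes, of the Iroquois class, pattern heart, limb and neural tissue. IRX2 had 0 counts in ME-180 knockdown and 245 counts (22.7 CPM) in ME-180 control, at least 75.9-fold lower with a lower limit of 61.3-fold, in a well-covered row. In SiHa cells it had 265 counts (19.4 CPM) in overexpression and 228 counts (16.0 CPM) in vector, so among the 4 libraries it was absent from the counts of ME-180 knockdown alone. IRX5 had 95 counts in knockdown and 46 in control in ME-180, and 31 in overexpression and 44 in vector in SiHa.

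EMX2, a factor of forebrain and the urogenital system, had 154 counts (15.3 CPM) in ME-180 knockdown and 8 counts (0.740 CPM) in ME-180 control, 20.7-fold higher (10.2 to 48.8). It had 13 counts in SiHa overexpression and 18 in SiHa vector. DLX1, of forebrain and jaw, had 412 counts (41.0 CPM) in ME-180 knockdown and 315 counts (29.2 CPM) in ME-180 control, with no call at a log2 ratio of 0.48. In SiHa it had 277 counts in overexpression and 390 in vector. OTX1, a forebrain gene, was level in both pairs, at 73 counts in ME-180 knockdown and 79 in ME-180 control, and at 76 in SiHa overexpression and 82 in SiHa vector.

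LHX genes encode LIM-homeodomain factors of neurons and glands, and all had under 100 counts. Of 5 in the ME-180 table, LHX8 was called higher with 24 counts in knockdown and 0 in control. LHX3, of pituitary and motor neurons, was called lower with 0 counts in knockdown and 50 in control, in a sparsely covered row. LHX6 had 77 counts in knockdown and 55 in control, LHX9 had 17 in knockdown and 13 in control, and LHX5 had 0 in knockdown and 7 in control. Beside the calls of LHX8 and LHX3, 28.2% of all genes were called higher and 20.6% lower.

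SiHa cells had rows for MSX and PITX1, genes of limb, jaw and hindlimb development that have no ME-180 row. PITX1 had 9345 counts (683 CPM) in overexpression and 8963 counts (631 CPM) in vector, a ratio of 1.08-fold (1.05 to 1.11). MSX1 had 745 counts (54.4 CPM) in overexpression and 992 counts (69.8 CPM) in vector, 1.28-fold lower (1.17 to 1.41), and MSX2 had 188 counts in overexpression and 240 in vector. The only SIX-class gene read, SIX3, had 2 counts in overexpression and 1 in vector.

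The SiHa table held 36 of 61 members at under 100 counts in both libraries. PAX6 had 50 counts in SiHa overexpression and 46 in SiHa vector, PAX8 had 75 in overexpression and 55 in vector, and PAX9, of pharynx and tooth, had 62 in overexpression and 78 in vector. LHX1, of kidney and head, had 48 counts in overexpression and 80 in vector, and DLX5, of bone and jaw, had 75 in overexpression and 69 in vector. DLX4, EMX1, IRX4, LHX4, LHX6 and MEIS2 had between 8 and 62 counts in each library, and PAX1, PAX2, PAX3, LHX3, LHX8, LHX9, NKX1-2 and NKX6-2 had 11 or fewer. None of these was called in the SiHa pair.

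TLX1, a homeobox gene of spleen development and T-cell leukaemia, was the one member with 100 or more counts that passed 2-fold in the SiHa pair. It had 27 counts (1.97 CPM) in SiHa overexpression and 154 counts (10.8 CPM) in SiHa vector, 5.50-fold lower (3.63 to 8.61). The authors' deposited table gives it a log2 fold change of -2.41 and an adjusted p-value of 0.0038, the one member transcript under 0.05 among 22 transcripts in all. TLX1NB, its neighbour, had 1 count in overexpression and 17 in vector and was also called lower. Both genes had 2 counts or fewer in each ME-180 library. TLX2, another member of the family, was read in ME-180 only, at 1 count in knockdown and 23 in control.

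In the whole SiHa table, 49 of 61 members reached 1 CPM. None was called higher and 4 were called lower (TLX1, TLX1NB, NKX2-2 and NKX2-4), which is 8.16% of the 49, where 1.32% of all genes were called, 0.572% higher and 0.743% lower. With well-covered identifiers alone it was 3 of 33, where 1.42% of genes were called. The median log2 ratio of the members was -0.30, or -0.26 after scaling by trimmed means, and that of all genes was -0.05. The interval lay wholly below 1 for 20 members (40.8%) and wholly above 1 for 4 (8.16%) of the 49. Over all genes at 1 CPM or more these shares were 23.8% and 14.7%. The basal squamous marker list had 7 genes with a SiHa row, one of them TP63, the overexpressed gene. Of the 6 others, KRT5, KRT14, KRT15, KRT17 and COL17A1 were called higher in SiHa overexpression and PKP1 was not, and the level summed over all 7 was 9090 CPM in overexpression and 4208 CPM in vector. Their part in the lower homeobox levels was not tested.

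**Figure D4:**
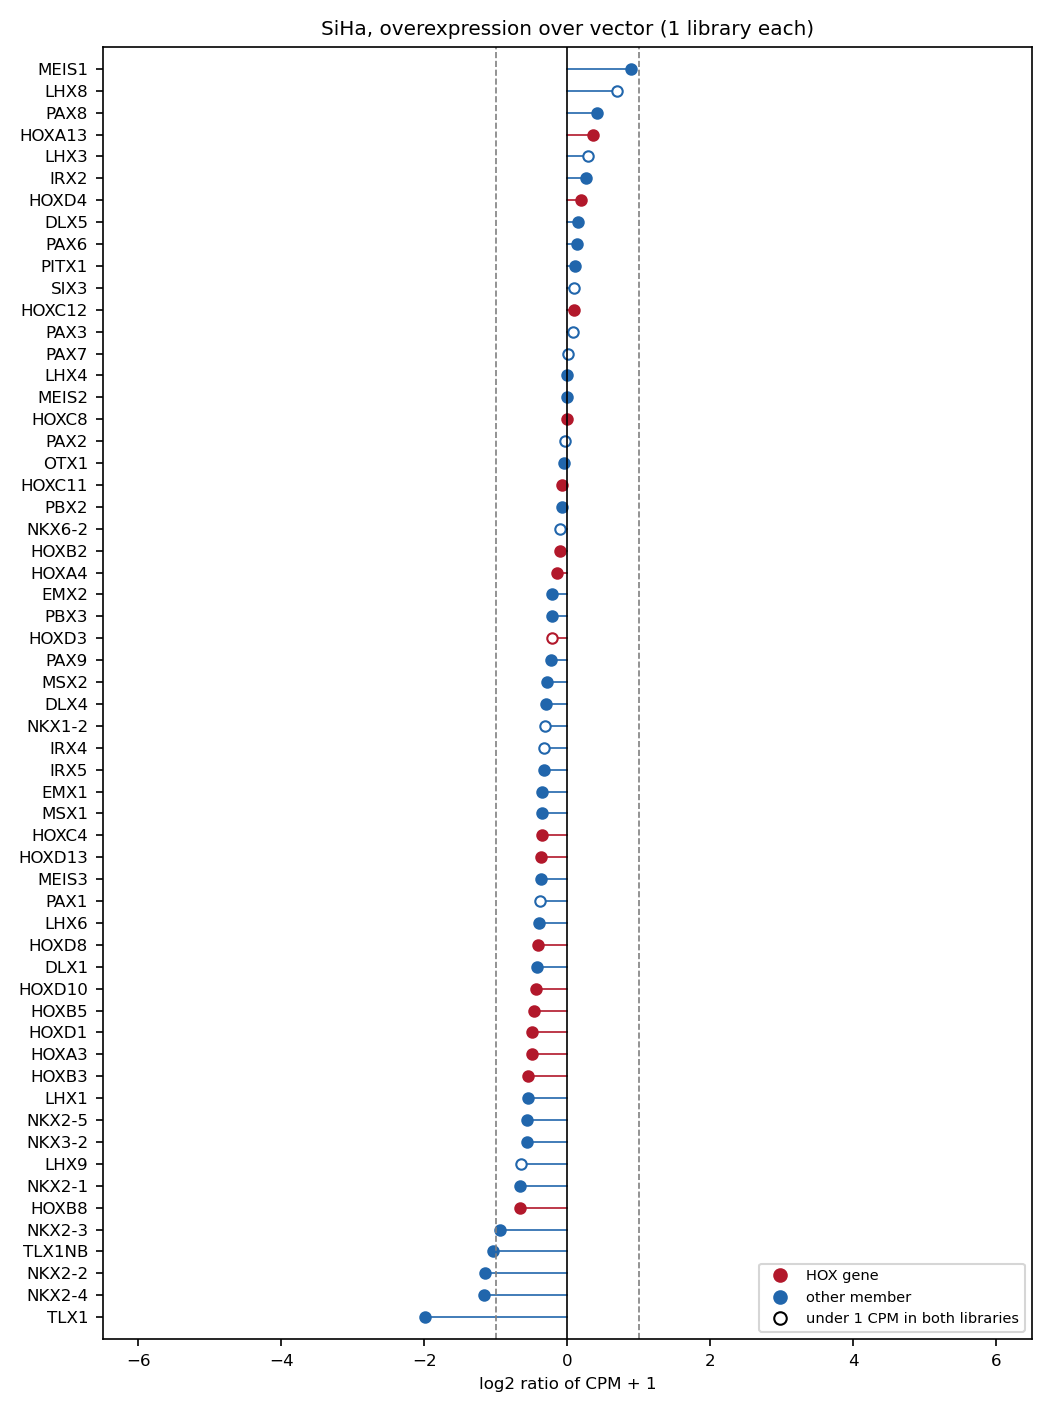
Log2 ratio of CPM + 1 in SiHa overexpression over SiHa vector for members with a row (all but a few not reported here), 1 point per gene in order of the ratio, with HOX genes marked apart from the others. Most points lie a little below 0, with MEIS1 at 0.89 at the upper end and TLX1 at -1.99 at the lower.

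Between the lines, 28 of the 33 shared members reached 1 CPM in ME-180 control or SiHa vector. Of these, 9 were higher and 7 lower in ME-180 control, 57.1%, where 38.4% of 6144 genes were called, 25.7% higher and 12.7% lower. Genes higher in ME-180 control were led by PAX7, with 571 counts in ME-180 control and 2 in SiHa vector, and NKX2-1, 29.2-fold higher (21.1 to 41.6). MEIS2 was 6.61-fold higher (4.63 to 9.68) in ME-180 control. Genes lower in ME-180 control included NKX2-5, 64.4-fold lower (21.8 to 314), and MEIS3, 3.90-fold lower (3.18 to 4.80). TLX1 had 1 count in ME-180 control and 154 in SiHa vector for the transcript the tables share.

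Against the same SiHa vector library, 30 members could be called for ME-180 knockdown, with 16 higher and 5 lower, 70.0%, where 44.5% of 6170 genes were called, 34.8% higher and 9.66% lower. After scaling by trimmed means, 9 members were called higher and 7 lower of 29, with a median log2 ratio of 0.59, where 920 genes were higher and 1117 lower of 6126, with a median of -0.01. NKX2-5 was 2.43-fold higher (2.08 to 2.85) in ME-180 knockdown than in SiHa vector on the table totals, and at a log2 ratio of 0.55 after that scaling. IRX2 was at least 53.7-fold lower and PAX8 had 1 count in ME-180 knockdown against 55 in SiHa vector. Both comparisons use the same SiHa vector library.

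Genes around the homeobox pathways were read from lists. HOX clusters are held silent by Polycomb proteins and kept active by Trithorax and MLL proteins, and retinoic acid turns HOX genes on in order. Of 19 Polycomb group genes, 3 had an ME-180 row, and 1 was called higher in knockdown. That gene was EZH2, the histone H3 lysine methyltransferase, with 650 counts (64.7 CPM) in ME-180 knockdown and 268 counts (24.8 CPM) in ME-180 control. The Trithorax and MLL complex list had 15 names, some of them older names of another listed gene. Of these names 5 had a row and 3 were called higher, MEN1 (log2 ratio 1.56), ASH2L (1.24) and RBBP5 (1.22). The medians were -0.22 for Polycomb and 1.22 for Trithorax, where all genes had 0.28 and 28.2% of them were called higher.

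The retinoic acid pathway had 13 of 18 genes with a row in ME-180, 11 at 1 CPM or more, with 4 called higher and 5 called lower and a median of -0.09, where 28.2% of all genes were higher and 20.6% lower. ALDH1A2, which makes retinoic acid in the embryo, had 878 counts (87.4 CPM) in knockdown and 1 count (0.0926 CPM) in control. ALDH1A3, which makes it in epithelia, had 332 counts (33.0 CPM) in knockdown and 10137 counts (938 CPM) in control. CRABP2, its carrier in the cell, had 358 counts in knockdown and 15832 in control, and RARG, a retinoic acid receptor prominent in skin, had 138 in knockdown and 1904 in control. One synthesising enzyme was therefore higher and another lower, along with the carrier and the epithelial receptor.

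Partners of SIX-class, PAX and TALE factors had 8 of 17 genes with an ME-180 row, with 3 called higher and 1 lower. SALL1, a kidney and limb factor, had 371 counts in knockdown and 0 in control. EYA1, the coactivator of SIX-class proteins, had 180 in knockdown and 0 in control, and LMO1, a LIM-only factor, had 13 in knockdown and 113 in control. Of 65 other homeobox genes, 23 had a row and 20 reached 1 CPM, with 6 called higher and 7 lower and a median of 0.66. The shares over all genes, for this list and the partners alike, were 28.2% higher and 20.6% lower. CDX2, a posterior gut factor that acts upstream of HOX genes, had 1014 counts (101 CPM) in knockdown and 117 counts (10.8 CPM) in control, in a sparsely covered row. GBX1 had 114 counts in knockdown and 0 in control, and LBX2 had 160 in knockdown and 25 in control. None of 16 listed names of HOX long noncoding RNAs, some of them names of the same gene, had a row in either table. All member transcripts had identifiers of protein-coding RNA, so noncoding RNA may not have been counted. The missing rows therefore say nothing about expression.

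In SiHa cells no gene of these lists passed 2-fold, over 5 Polycomb, 5 Trithorax, 12 retinoic acid, 11 partner and 30 other homeobox genes at 1 CPM or more. Of all 6996 genes only 1.32% did, so few calls were to be had in lists of this size. ALDH1A3 came closest, with 3270 counts (239 CPM) in overexpression and 1780 counts (125 CPM) in vector.

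Marker lists of other tissues were summed beside these results. Over all genes of the ME-180 pair, 28.2% were called higher and 20.6% lower. Kidney and nephron progenitor markers, which include PAX2, SALL1 and EYA1, had 7 of 10 genes with an ME-180 row. Their summed level was 77.5 CPM in ME-180 knockdown and 0.926 CPM in ME-180 control, and all 6 at 1 CPM or more were called higher. With the control sum under 1 CPM, these 6 passed the floor through knockdown alone, and none could have been called lower. Müllerian tract markers, which include HOXA13, EMX2 and PAX8, had 2 called higher and 3 lower of 5, with ESR1, the oestrogen receptor, at 0 counts in knockdown and 185 in control. Simple epithelium markers had 2 called lower of 3, at a sum of 131 CPM in knockdown and 2711 CPM in control. Neural markers had 1 called higher of 2, NEFM, with 353 counts in knockdown and 12 in control. The other, TUBB3, went the other way without a call, at 187 counts in knockdown and 367 in control (log2 ratio -0.83).

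Fibroblast markers had 2 called higher and 1 lower of 5, with sums of 116 CPM in ME-180 knockdown and 158 CPM in ME-180 control. Endothelial markers had 1 called higher of 1, on 12 counts in knockdown and 0 in control, and blood markers 1 higher and 1 lower of 2. The shares over all genes were again 28.2% higher and 20.6% lower. In SiHa cells KRT19 was the one gene of these further lists called, 1 of 5 simple epithelium markers. It was called higher, as were 0.572% of all genes. In bulk RNA, fewer cells of a type and less RNA per cell cannot be told apart, and the part of other cell types in the homeobox levels was not tested.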

How the data were processed

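The study has 6 samples with 1 library per group, 4 of RNA and a p63 immunoprecipitation with its input. Total RNA was extracted with TRIzol, per the labels' protocols. The submitters' processing notes name TopHat, Cufflinks, DESeq2 and hg19 without roles, with the counter and its strand setting not given in the sources used here. In each table the authors deposited whole-number read counts per RefSeq transcript, 15189 rows for ME-180 and 16600 for SiHa, beside their own log2 fold changes and p-values, which are quoted only as theirs. The tables' identifiers were compared to find missing rows. Spreadsheet dates stood for the names of 32 ME-180 rows and 31 SiHa rows, which were named by identifier. The deposited peaks were not analysed here.

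Counts were divided by each column's total and scaled to CPM, and each gene was read from its transcript with the highest sum over the libraries compared (for levels across tables, among transcripts in both). Log2 ratios used CPM plus 1. A call needed 2-fold with 1 CPM in a library. Poisson and conditional binomial intervals (exact, 95%) cover counting error only, set by column totals between 10046579 and 14207637 counts per library. The groups, at 1 library each, were compared without a p-value. The calling was tested on simulated data. Python 3.11.15, pandas 2.3.3, scipy 1.17.1 and, for trimmed-mean scaling (TMM) alone, edgeR 4.0.16 were used.

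Members with at least 100 counts in a library are given with their values, except a few that are not reported here, and the others by counts and ranges, and of each other list up to 4 genes with the largest absolute ratio in ME-180 among those with 100 counts. The members, lists and markers were chosen with earlier results of these data known. Promoter sequences came from RefSeq, GRCh38.p14. Alternatives were pseudocounts of 0.1 and 5 CPM, no floor or a floor of 5 CPM, other scalings, sums over transcripts, a limit of 4-fold and, added after seeing the data, the well-covered identifiers alone and the range over transcripts.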

Additional observations from a re-analysis of the deposited data

How the results depend on the processing

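Of 160 recomputed counts and likeness values, 135 kept within 1.5 times their value or the set limit and 25 did not. Among 432 recomputed ratios of single genes, 310 stayed within their counting interval and 122 did not, and 0 changed sign while called. Members lower in ME-180 knockdown than in control numbered 5 with a pseudocount of 5 CPM, 6 at 4-fold and 6 with the well-covered identifiers. Members lower in SiHa overexpression numbered 1 with a pseudocount of 5 CPM, 1 with a floor of 5 CPM and 0 at 4-fold, and 1 HOX gene was called there with a pseudocount of 0.1 CPM. In ME-180 control over SiHa vector, members lower numbered 4 with a pseudocount of 5 CPM and 3 at 4-fold, and 2 HOX genes passed 4-fold. In ME-180 knockdown over SiHa vector, members higher numbered 10 with CPM over shared transcripts, 9 with TMM, 9 with median-of-ratios scaling, 10 with a pseudocount of 5 CPM and 6 at 4-fold. HOX genes called there numbered 2 under each of these 5 settings, and members lower numbered 3 with a floor of 5 CPM, a pseudocount of 5 CPM or the well-covered identifiers. Taken over all members in place of HOX genes, the mean absolute log2 difference was 1.37 between ME-180 control and SiHa overexpression and 1.52 between ME-180 control and SiHa vector. Beyond the fewer genes that stricter limits admit, the cause was not tested. TMM moved the median of all genes in ME-180 knockdown over control to 0.00, with 11 members higher and 12 lower. No paired analysis was possible because each group has 1 library, and for the same reason no replicate could be left out. Depth limits the members under 100 counts, 21 of 38 in ME-180 and 36 of 61 in SiHa.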
